A study of Mus musculus with 14 samples.

Results

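The opioid system of the mouse was followed here through 9 genes: the 4 peptide precursors Penk, Pdyn, Pomc and Pnoc, the 4 G protein-coupled receptors Oprd1, Oprm1, Oprk1 and Oprl1, and the opioid growth factor receptor Ogfr. They were taken by symbol through the platform annotation, and each had 1 probe set with a single symbol among the 19937 genes that could be named. All values are log2 expression levels of probe sets, as the authors computed them with RMA. A probe set was taken as near background where it lay below 6.76, the 40th percentile of all values. Because probe sets differ in how well they bind, levels are set against this background and between samples, and are not ranked from gene to gene.

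The precursors are cut by proprotein convertases into short peptides, of which the enkephalins, dynorphins, beta-endorphin and nociceptin come mainly from Penk, Pdyn, Pomc and Pnoc. Oprd1, Oprm1, Oprk1 and Oprl1 encode the delta, mu, kappa and nociceptin receptors, which act through inhibitory G proteins to lower cyclic AMP. Ogfr is unrelated to these receptors in sequence. It binds Met-enkephalin at the nucleus and is known for slowing cell proliferation. Lymphocytes are known to make Penk mRNA mainly after activation, and delta receptors have been described on T cells.

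The study hybridised 14 arrays, 1 per sample, with RNA of T cells sorted by flow cytometry from C57BL/6 mice labelled ENK KO or wild type (WT). CD8+ cells of the spleen came from 5 ENK KO and 4 WT samples, and CD4+CD8+ cells of the thymus, an immature stage, from 2 ENK KO and 3 WT samples. The ENK KO spleen samples were replicates 3 and 6 (2 months old, female), 25 (9 months, male), 28 (6 months, male) and 31 (7 months, male). The WT spleen samples were replicates 22 (labelled female), 34, 37 and 40 (male), all 7 months old. The ENK KO thymus samples were replicate 1 (2 months, female) and replicate 29 (7 months, male), and the WT thymus samples were replicates 7 (female), 32 and 38 (male), all 7 months old. Every 2-month-old sample was therefore ENK KO and female. Separate animals are not stated outright in the labels. The p-values are thus about the spread among these samples, and the number of arrays limits the precision.

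The labels do not spell out ENK or describe the allele. The series title names Engrailed-2, the product of En2, whereas the RefSeq gene table lists ENK as a synonym of Penk and of Nanog and of no other gene. A knockout of Penk would remove the enkephalin precursor, so Penk is given in every sample first.

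Of the 9 genes, 6 had promoters in the RefSeq table of the GRCm38.p6 assembly, each 250 bases before to 50 bases after a transcript start. Of these, 3 are shown because their genes lie on both sides of the background level: Ogfr and Oprd1 were above it on all 14 arrays and Oprm1 on none. Capitals mark the dinucleotide CG, which reads the same on both strands and cannot overlap itself. They are Ogfr at chr2:180589157-180589456 on the plus strand, Oprd1 at chr4:132144437-132144736 on the minus strand, and Oprm1 at chr10:6788326-6788625 on the plus strand, 1 of 3 starts listed for that gene.
Ogfr: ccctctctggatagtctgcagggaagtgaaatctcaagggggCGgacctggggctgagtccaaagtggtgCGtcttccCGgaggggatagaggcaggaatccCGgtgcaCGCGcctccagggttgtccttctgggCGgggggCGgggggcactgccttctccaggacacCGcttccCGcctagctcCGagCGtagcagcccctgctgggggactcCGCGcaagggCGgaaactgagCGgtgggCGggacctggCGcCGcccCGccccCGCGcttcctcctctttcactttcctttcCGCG
Oprd1: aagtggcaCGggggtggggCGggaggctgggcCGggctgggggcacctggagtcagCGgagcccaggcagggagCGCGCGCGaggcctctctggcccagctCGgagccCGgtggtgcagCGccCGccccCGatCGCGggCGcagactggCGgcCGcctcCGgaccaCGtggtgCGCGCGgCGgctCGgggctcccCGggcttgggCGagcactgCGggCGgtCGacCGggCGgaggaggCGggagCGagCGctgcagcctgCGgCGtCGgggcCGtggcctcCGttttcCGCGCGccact
Oprm1: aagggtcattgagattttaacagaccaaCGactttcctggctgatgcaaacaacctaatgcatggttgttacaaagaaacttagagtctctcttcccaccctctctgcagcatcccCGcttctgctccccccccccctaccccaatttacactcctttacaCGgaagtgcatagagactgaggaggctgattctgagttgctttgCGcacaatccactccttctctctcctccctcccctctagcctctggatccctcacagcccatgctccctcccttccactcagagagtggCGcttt
The Ogfr promoter held 24 CG, against a median of 7 over all 32851 promoters in the table, of which 80.0% held fewer than 24. The Oprd1 promoter held 43, and 97.4% of promoters held fewer. The Oprm1 promoter held 5, and 38.0% held fewer, and the other starts of Oprm1 held 3 and 4. The single Pomc promoter held 18, the pair listed for Pdyn 5 and 11, and those of Oprl1 5, 2 and 2. These counts describe the sequence only.

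A pair of arrays went against their labels. On the library labelled spleen ENK KO replicate 28, Cd4, the helper T cell co-receptor, was at 12.20, compared with 6.61 to 6.92 on 8 other spleen arrays. Cd8a, which the sorted cells should carry, was at 6.78 against 12.06 to 12.53, and Cd8b1 at 9.10 against 13.20 to 13.45. All 7 markers listed for regulatory and CD4 T cells were above 6.76 on this array, and their mean was 10.52, against 6.98 to 7.34 on the other ENK KO and 7.23 to 7.45 on the WT spleen arrays. Spleen WT replicate 22, labelled female, had Xist at 5.90 against 12.36 to 13.37 on the other 4 female arrays, and the Y-linked gene Kdm5d at 9.85. The defining markers of the thymus population were in place: the mean of 7 markers of CD4+CD8+ thymocytes was at least 11.97 on every thymus array, against 7.46 to 8.27 on the spleen arrays. The array medians lay between 7.14 and 7.25.

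Equal values between arrays bear on comparisons across tissues. Of 28213 probe sets, 16246 had exactly the same value on at least a pair of spleen arrays and 20123 on at least a pair of thymus arrays, but 0 had the same value on a spleen and a thymus array. Pairs of thymus arrays shared 24.6% to 30.5% of their values, pairs of spleen arrays 4.32% to 7.85%, and the 45 pairs across tissues none. Differences between spleen and thymus in the deposited values therefore cannot be told apart from an effect of summarising each tissue on its own, a step that no source used here records and that was not tested. Equal values also make the spread within a thymus group too small: Pomc, Oprm1 and Oprl1 had 1 value on all 5 thymus arrays.

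The 9 genes fell into 3 sets by their place against background. Ogfr, Oprd1 and Pnoc were above 6.76 on all 14 arrays. Pdyn was above it on 8 arrays and Pomc on 6, both with array values between 6.35 and 7.05. Penk exceeded it on 1 array, and Oprm1, Oprk1 and Oprl1 on none. By group mean 3 of 9 genes were above it in ENK KO spleen and 4 in WT spleen, and 4 in each thymus group, where 62.8%, 63.7%, 62.9% and 62.9% of all 19937 genes were.

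The 1027 olfactory receptor genes on the array, which T cells are not known to use, gave a second view of background. Their median level was 5.34, and 95% of their values were at most 6.85. By that bound the counts above background were 3, 4, 3 and 3 in the groups in the same order, Pomc lying below it in thymus. Ogfr stood between the 83.1 and 89.5 percentile of all probe sets, and Oprd1 and Pnoc between 52.7 and 60.7 and between 53.1 and 58.0. The last pair were nevertheless above at least 98.1% of olfactory receptor genes on every array. Penk stood between the 19.4 and 46.1 percentile and Oprk1 between 8.69 and 13.0, with 32.8% to 50.2% of olfactory receptor genes below it.

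**Figure D1:**
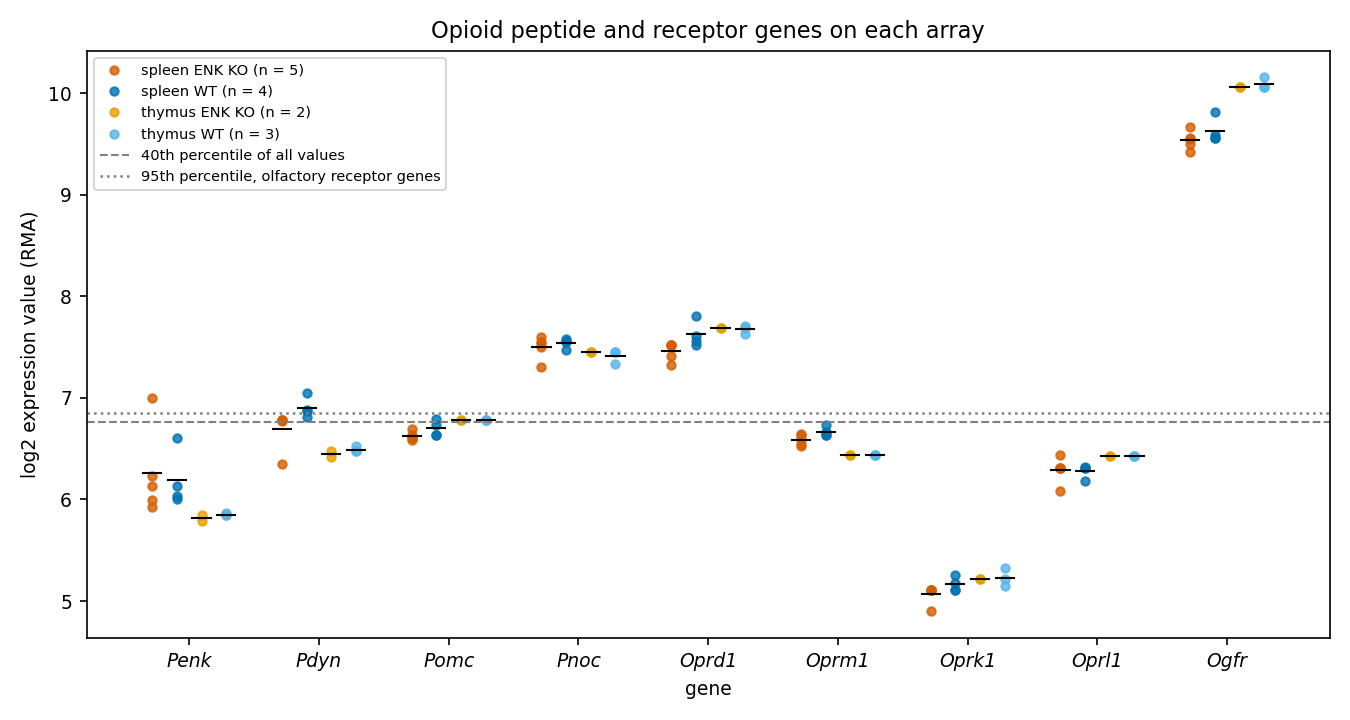
Log2 expression value of each of the 9 genes (x axis) on every array (points) in ENK KO and WT spleen and ENK KO and WT thymus, with group means as black bars. The dashed line is the 40th percentile of all values (6.76) and the dotted line the 95th percentile of olfactory receptor values (6.85). Ogfr, Oprd1 and Pnoc lie above both lines on all 14 arrays. Pdyn lies around both lines, and Pomc around the dashed line and below the dotted line. The other genes lie below both, apart from 1 ENK KO spleen array for Penk at 7.00.

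**Figure D2:**
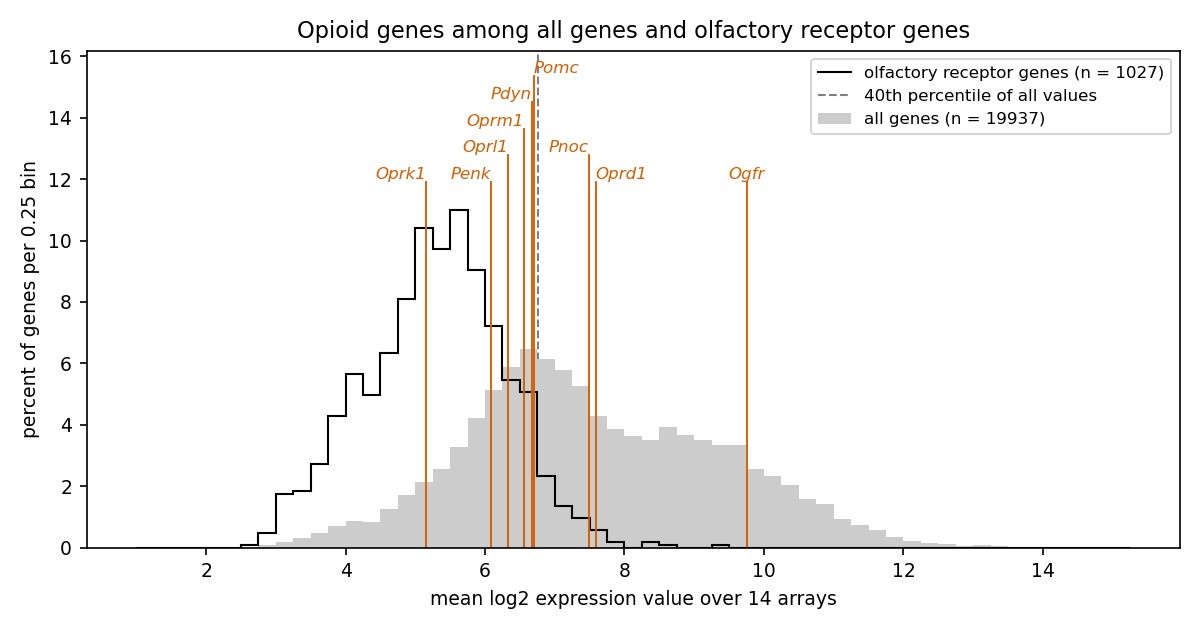
Percent of genes (y axis) by mean log2 value over 14 arrays (x axis, bins of 0.25) for all 19937 genes (grey) and for 1027 olfactory receptor genes (line), with the means of the 9 opioid genes as vertical orange lines. Ogfr at 9.76 lies beyond every olfactory receptor gene, whose highest mean was 9.45, whereas Oprk1 at 5.15 lies below their median of 5.34.

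Penk, the proenkephalin gene on chromosome 4, was near background in both genotypes. In spleen its values were 6.00, 6.14, 5.93, 7.00 and 6.23 in ENK KO (replicates 3, 6, 25, 28 and 31), against 6.00, 6.61, 6.14 and 6.03 in WT (replicates 22, 34, 37 and 40). The only array above the background level was the library labelled ENK KO replicate 28, and the remaining ENK KO values lay within the WT range or just under it. In thymus Penk was at 5.79 and 5.84 in ENK KO, against 5.84, 5.86 and 5.84 in WT.

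The Penk means were 6.26 ± 0.43 (SD, n = 5) in ENK KO and 6.19 ± 0.28 (n = 4) in WT spleen, a log2 difference of 0.064. An exact two-sided permutation test gave p = 0.841, the smallest value that 5 against 4 allows being 0.00794. Without replicate 28 the ENK KO mean was 6.07 ± 0.14 (n = 4), the difference turned to -0.12 and the exact permutation p was 0.543. In thymus the means were 5.82 ± 0.04 (n = 2) in ENK KO and 5.85 ± 0.01 (n = 3) in WT, a difference of -0.034 (exact permutation p = 0.3, smallest possible 0.1). A WT level at background leaves little room for a fall, and where the probes lie relative to a deletion is unknown here. Penk on these arrays therefore neither bears out nor contradicts the reading of ENK as enkephalin. En2, for comparison, differed by 0.22 in spleen and 0.065 in thymus (exact permutation p = 0.683 and 0.4). By group mean En2 was near background as well, at 6.71 ± 0.69 (SD, n = 5) in ENK KO and 6.49 ± 0.32 (n = 4) in WT spleen. In thymus it was at 6.07 ± 0.09 (n = 2) in ENK KO and 6.01 ± 0 (n = 3) in WT. The wide SD in ENK KO spleen means that En2 was above 6.76 on part of those arrays. With WT means below the background level in both tissues, En2 checks the labels no better than Penk.

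Replicate 28 differed from the other spleen arrays in Penk together with genes of regulatory and CD4 T cells. Penk was at 7.00 there against 5.93 to 6.61 on the other 8 arrays. Foxp3, which specifies regulatory T cells, was at 9.87, with 7.34 to 7.48 on the others, while Il2ra (the interleukin-2 receptor alpha gene) stood at 11.14, the others at 6.66 to 7.12. Ctla4, an inhibitory receptor, was at 10.59 against 7.06 to 9.46, and Zbtb7b, the factor that fixes the CD4 lineage, at 9.86 against 6.89 to 7.58. The part of these markers in the Penk value was not tested, since they rest on 1 array. In bulk samples of this kind, more cells that express a gene and more RNA per cell cannot be told apart. The thymus arrays, where the same list had a mean of 8.46 to 8.50 in ENK KO and 8.34 to 8.42 in WT and Cd4 is part of the sorted phenotype, showed Penk at no more than 5.86. These list means were below the 10.52 of replicate 28. The limit on comparisons across tissues holds here too, and no cause was tested.

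**Figure D3:**
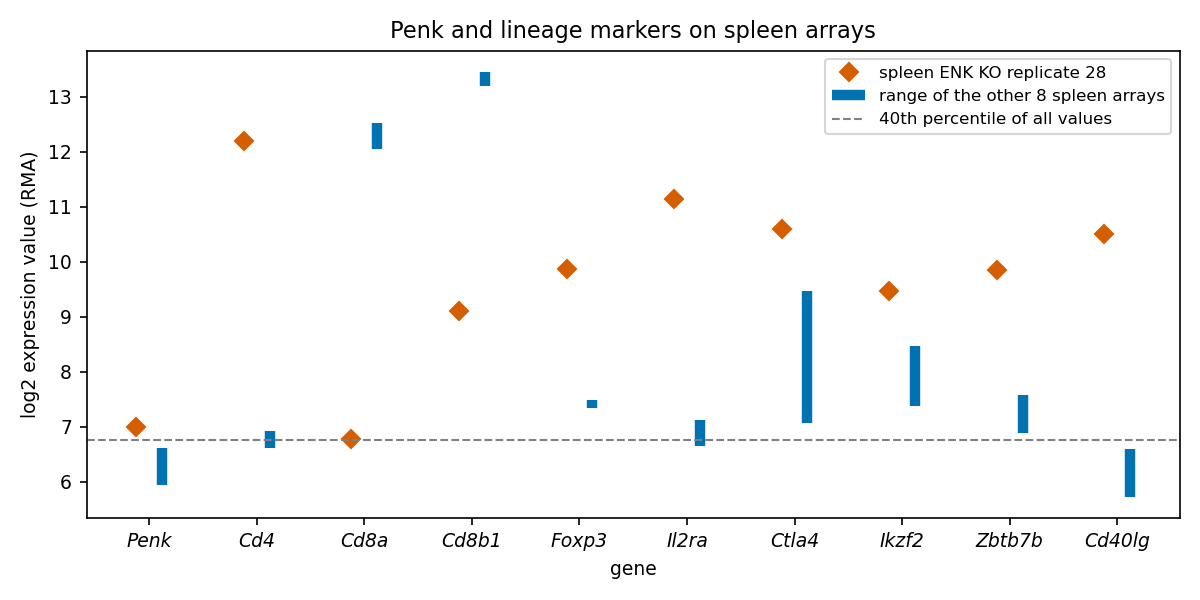
Log2 value (y axis) of Penk and of T cell lineage genes on the library labelled spleen ENK KO replicate 28 (diamonds), beside the range of the other 8 spleen arrays (bars). Penk, Cd4 and the regulatory T cell genes lie above that range and Cd8a and Cd8b1 below it; the dashed line is the 40th percentile of all values.

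Pdyn, the prodynorphin gene on chromosome 2, was above the background level on all 4 WT and on 4 of 5 ENK KO spleen arrays, by little, and below it on all 5 thymus arrays. It did not pass the test between genotypes. Its values were 6.35, 6.78, 6.77, 6.78 and 6.78 in ENK KO, against 6.88, 7.05, 6.81 and 6.87 in WT spleen. All 5 ENK KO arrays lay below all 4 WT arrays, by a margin of a few hundredths between the nearest arrays, and replicate 3 stood well below the rest. The means were 6.69 ± 0.19 (SD, n = 5) in ENK KO and 6.90 ± 0.10 (n = 4) in WT. The log2 difference was -0.21 (SE 0.08, 95% interval -0.39 to -0.03, limma adjusted p = 0.595), and -0.13 without the 2-month-old samples (adjusted p = 0.72). Groups that did not overlap in spleen were found for 1.71% of the genes passing the filter on low values, and with ENK KO lower for 0.814%. The markers of platelets and red cells, of which 4 of 6 had a probe set with a single symbol, also did not overlap. Their mean was 6.84 to 7.35 in ENK KO and 7.58 to 7.73 in WT spleen, and its part in the Pdyn values was not tested. In thymus Pdyn was at 6.42 and 6.47 in ENK KO, against 6.47, 6.53 and 6.47 in WT, a difference of -0.05 (adjusted p = 1 in limma).

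Pomc, the precursor of beta-endorphin and of the melanocortins, on chromosome 12, lay within a narrow range around the background level. It was at 6.61, 6.69, 6.64, 6.61 and 6.59 in ENK KO and at 6.73, 6.64, 6.64 and 6.79 in WT spleen, and at 6.78 on all thymus arrays of both genotypes. The spleen groups overlapped, and the log2 difference was -0.07 (SE 0.04, limma adjusted p = 0.619). Pnoc, the prepronociceptin gene on chromosome 14, was the only precursor above background throughout. It was at 7.30, 7.50, 7.55, 7.54 and 7.60 in ENK KO, against 7.58, 7.56, 7.47 and 7.56 in WT spleen, and at 7.45 and 7.45 in ENK KO, against 7.33, 7.45 and 7.45 in WT thymus. Its 4 group means spanned only 7.41 ± 0.07 (WT thymus, n = 3) to 7.54 ± 0.05 (WT spleen, n = 4). The genotype difference was -0.04 (SE 0.06) in spleen and 0.04 in thymus (limma adjusted p = 0.842 and 1).

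Oprd1, the delta receptor gene on chromosome 4, was the only one of the 4 G protein-coupled receptor genes above background. Its values were 7.41, 7.32, 7.52, 7.52 and 7.52 in ENK KO, against 7.61, 7.56, 7.52 and 7.81 in WT spleen. The ENK KO replicates 3 and 6, which are the 2-month-old samples, were the lowest, and the others met the lowest WT array. The means were 7.46 ± 0.09 (n = 5) in ENK KO and 7.63 ± 0.13 (n = 4) in WT, a log2 difference of -0.17 (SE 0.06, 95% interval -0.30 to -0.04, limma adjusted p = 0.595). The difference was -0.18 without replicate 28 (adjusted p = 0.468), -0.10 without the 2-month-old samples (adjusted p = 0.73) and -0.11 without WT replicate 40, the highest array (adjusted p = 0.639). In thymus Oprd1 was at 7.69 and 7.69 in ENK KO, against 7.63, 7.69 and 7.71 in WT, a difference of 0.01 (adjusted p = 1). The lower end of the spleen interval corresponds to 0.814 of the WT level.

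Oprm1, the mu receptor gene on chromosome 10 and the main target of morphine, stayed below 6.76 on every array. It was at 6.55, 6.64, 6.52, 6.59 and 6.64 in ENK KO and at 6.64, 6.67, 6.73 and 6.64 in WT spleen, and at 6.43 on all 5 thymus arrays. The spleen groups met without separating, with a log2 difference of -0.08 (SE 0.03, limma adjusted p = 0.59 in the fit of all genes). Oprk1, the kappa receptor gene on chromosome 1, was at 5.11, 5.11, 5.11, 5.11 and 4.90 in ENK KO and at 5.26, 5.18, 5.11 and 5.11 in WT spleen. In thymus it was at 5.21 and 5.21 in ENK KO, against 5.21, 5.15 and 5.33 in WT. Oprl1, the nociceptin receptor gene on chromosome 2, was at 6.09, 6.44, 6.31, 6.31 and 6.31 in ENK KO and at 6.32, 6.18, 6.31 and 6.31 in WT spleen, and at 6.42 on all thymus arrays. A sample-to-sample pattern cannot be read from values that repeat in this way, and in limma neither gene differed by genotype past the threshold (adjusted p = 0.655 and 0.965 in spleen, 1 and 1 in thymus).

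Ogfr, on chromosome 2, was clearly expressed in both populations. It was at 9.56, 9.55, 9.67, 9.42 and 9.50 in ENK KO, against 9.56, 9.81, 9.59 and 9.56 in WT spleen, and at 10.06 and 10.06 in ENK KO, against 10.16, 10.06 and 10.06 in WT thymus. Within a tissue the genotypes overlapped. The spleen means were 9.54 ± 0.09 (SD, n = 5) in ENK KO and 9.63 ± 0.12 (n = 4) in WT, and the log2 difference was -0.09 (SE 0.06, 95% interval -0.23 to 0.04, limma adjusted p = 0.696). The highest spleen array was WT replicate 34, and without it the difference was -0.03. The lowest was the library labelled ENK KO replicate 28, and without that array the difference was -0.06. In thymus the difference was -0.03 (adjusted p = 1).

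**Figure D4:**
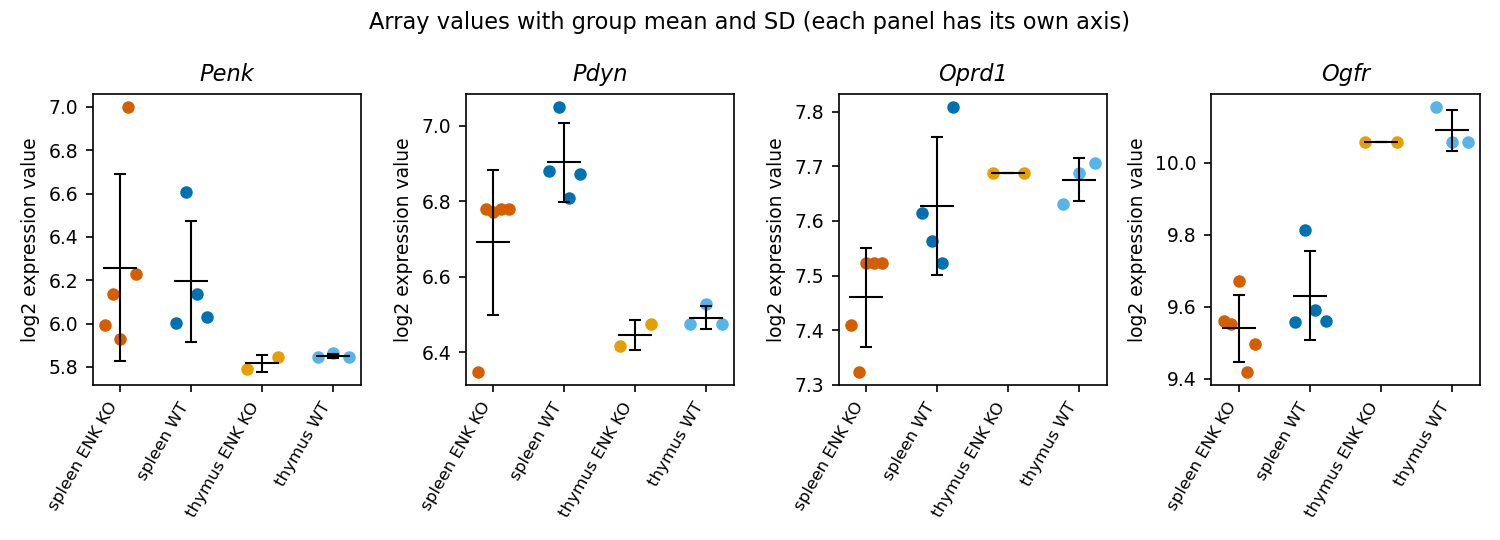
Log2 values of Penk, Pdyn, Oprd1 and Ogfr on each array (points) by group, with the group mean and SD as black bars; each panel has its own y axis. In spleen all ENK KO arrays lie below all WT arrays for Pdyn, and the genotypes overlap for the other genes shown; thymus arrays repeat the same values.

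In all, 0 of the 9 genes differed between ENK KO and WT past an adjusted p of 0.05 in spleen, where limma called 0.00733% of the genes passing the filter. At an unadjusted p under 0.05 there were 3 (Pdyn, Oprd1 and Oprm1), where 8.37% of genes reached it. The spread behind these p-values was shared with the thymus arrays, whose repeated values can make them too small. With spleen arrays alone the limma adjusted p was 0.76 for Pdyn and Oprd1 and 0.794 for Oprm1. The difference was below 0 for 7 of the 9, with a median of -0.08, and for 58.1% of all genes, with a median of -0.02. In thymus 0 of the 9 passed, where 0.0147% of genes did, and 0 reached an unadjusted p under 0.05, where 2.76% of all genes did. The thymus differences were below 0 for 4 of the 9, as for 48.6% of all genes, above 0 for 2 and exactly 0 for 3. The test of whether the genotype difference itself was unlike in spleen and thymus also called 0 of the 9, where it called 0.00733% of genes, and 0 reached an unadjusted p under 0.05, where 2.66% of all genes did. These differences of differences ran from -0.18 to 0.10. Only 5 of the 9 genes passed the filter on low values (Pdyn, Pomc, Pnoc, Oprd1 and Ogfr); the other 4 were read from the fit of all genes.

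**Figure D5:**
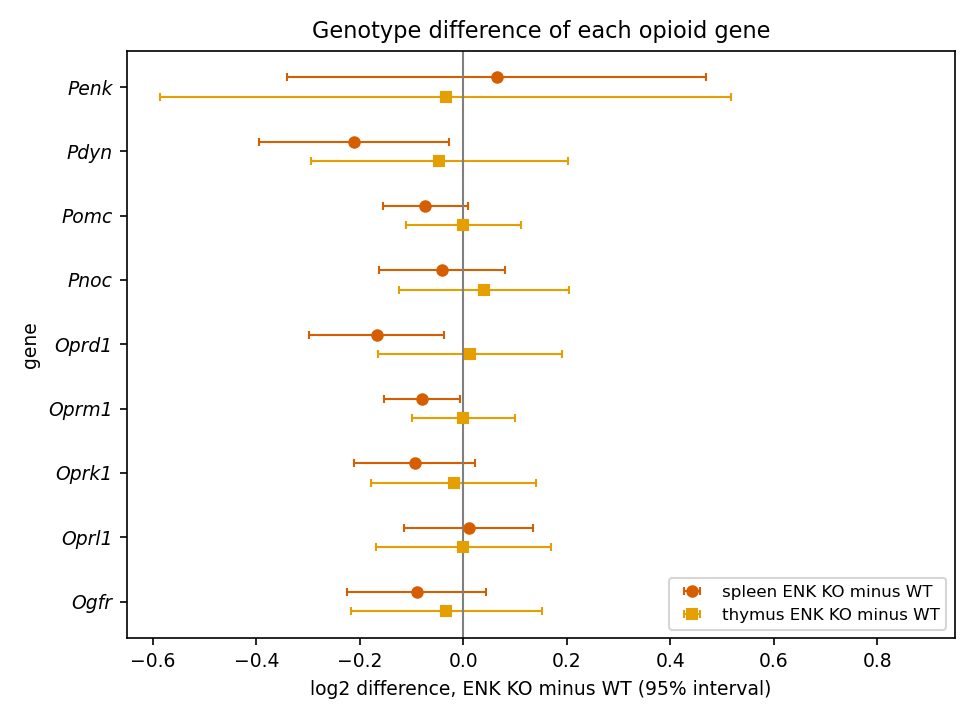
Log2 difference, ENK KO minus WT (x axis), with its 95% interval from limma for each of the 9 genes in spleen (circles) and thymus (squares). The intervals of Pdyn, Oprd1 and Oprm1 in spleen end just below 0, and all others include 0. Their spread was shared over spleen and thymus arrays, so the spleen intervals can be too narrow. None of the 9 passed the adjusted threshold in either tissue.

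Ogfr was lower in spleen CD8+ cells than in thymus CD4+CD8+ cells as deposited, in both genotypes. The log2 difference, spleen minus thymus, was -0.52 (SE 0.08, adjusted p = 6.87e-05) in ENK KO and -0.46 (SE 0.07, adjusted p = 7.49e-05) in WT, a spleen level of 0.699 and 0.727 of the thymus level. Without replicate 28, whose markers went against its CD8+ label, the ENK KO difference was -0.49 (limma adjusted p = 0.000112). The ENK KO and WT comparisons share no array. All 9 spleen arrays lay below all 5 thymus arrays, so the 4 group means stand in 2 pairs, with no difference past the threshold between genotypes inside a pair. Of the genes passing the filter 64.4% were called in ENK KO and 68.6% in WT, and of the 1027 olfactory receptor genes 50.8% and 55.7% in the fit of all genes. The size of the Ogfr difference lay within the range of olfactory receptor genes, 95% of which differed by at most 0.74 in ENK KO and 0.75 in WT. Tissue, cell population and a possible separate summarisation cannot be told apart here.

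The same limit holds for the other genes. In ENK KO, the spleen level was likewise lower for Oprd1 and Pomc, with log2 differences of -0.23 and -0.15 (limma adjusted p = 0.0173 and 0.0121). Both calls were lost when either of the 2 ENK KO thymus arrays was left out, so that 1 gene, Ogfr, was then called. In WT the same genes differed by -0.05 and -0.08 (adjusted p = 0.546 and 0.118). Pdyn was higher in spleen, by 0.25 in ENK KO (adjusted p = 0.0564) and 0.41 in WT (adjusted p = 0.00201). Oprm1, which did not pass the filter, was higher in spleen by 0.16 and 0.24 in the fit of all genes (adjusted p = 0.00628 and 0.000134), at a level near background in both tissues. That fit called 60% of all genes in ENK KO and 64.4% in WT. Thus 3 of the 5 genes tested were called in ENK KO and 2 in WT, where 64.4% and 68.6% of genes were. The groups did not overlap for 6 of the 9 genes in either genotype, as was the case for 67.9% of all genes in ENK KO and 69% in WT.

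The rest of the opioid pathway was read from 6 lists of 81 genes, of which 75 were in the table and 54 passed the filter. In limma 0 of the 54 differed by genotype past the threshold in either tissue, where 0.00733% of all tested genes did so in spleen and 0.0147% in thymus. At an unadjusted p under 0.05 there were 4 in spleen and 1 in thymus, where 8.37% and 3.53% of all tested genes reached it. The median difference was -0.04 in spleen, against -0.01 over all tested genes, and 0 in thymus, as over all tested genes. Among the 7 tested genes of peptide processing, Pcsk1, a convertase of peptide precursors, differed by -0.22 in spleen (-0.12 without replicate 28) and 0.23 in thymus. Ctsl, the cathepsin that also processes proenkephalin, was at 11.49 ± 1.52 (n = 2) in ENK KO and 12.38 ± 0.33 (n = 3) in WT thymus, a difference of -0.89 (SE 0.43), less than the spread between the ENK KO arrays. Among 10 peptidases that break enkephalins or related peptides down, Thop1 had the smallest p in spleen (-0.15, SE 0.06, limma adjusted p = 0.595).

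Among 17 tested genes of inhibitory G protein signalling, Gnb4, a G protein beta subunit, had the largest difference. It was at 8.31 ± 0.15 (n = 2) in ENK KO and 9.76 ± 0.25 (n = 3) in WT thymus, a log2 difference of -1.45 (SE 0.26) whose limma adjusted p was 0.168. In spleen Gng2, a gamma subunit, differed by -0.23 (SE 0.09) and Adcy6, an adenylyl cyclase that opioid receptors can inhibit, by 0.39 (SE 0.16), both with a limma adjusted p of 0.595. Without replicate 28 the Adcy6 difference was 0.23. Without replicate 28 the spleen calls of these lists were also 0. The 4 tested genes of receptor desensitisation, the arrestins Arrb1 and Arrb2 and the kinases Grk5 and Grk6, differed by -0.0013 to 0.16 in spleen and by -0.16 to 0.12 in thymus. Of 14 factors known to act on Penk transcription, Fos and Fosl2 differed by -0.67 (SE 0.36) and -0.66 (SE 0.33) in spleen. Fosb and Jun differed by 0.95 (SE 0.48) and 0.84 (SE 0.48) in thymus. None of the 14 passed the adjusted threshold, and Atf2 alone reached an unadjusted p under 0.05 (a difference of 0.09 in spleen). The genes Mc1r and Npffr1, the tested members of the related receptors, differed by 0.14 and -0.04 in spleen (0.23 and -0.04 without replicate 28) and by 0.13 and 0.05 in thymus.

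Between tissues 35 of the 54 pathway genes were called in ENK KO, 18 higher and 17 lower in spleen, and 37 in WT, 21 higher and 16 lower, where 64.4% and 68.6% of all tested genes were called. Arrb2 was higher in spleen by 1.45 in ENK KO and 1.34 in WT, and Grk6, a receptor kinase of immune cells, by 0.84 and 0.78. Adcy7, an adenylyl cyclase of immune cells, was higher by 2.16 and 1.97, while Adcy6 differed by -1.98 and -2.38. Among peptide processing genes Pam, which amidates peptide ends, was higher by 0.80 and 0.82, and Ctsl differed by -3.04 and -3.93. Prep, which cuts short peptides, differed by -1.54 in ENK KO and -1.36 in WT, and the aminopeptidase Npepps by -1.09 and -1.12. Nfatc1 and Nfatc2, factors activated through the T cell receptor, were higher by 1.08 and 1.54 in ENK KO and by 1.05 and 1.52 in WT. Atf2 and Creb1 differed by -0.71 and -0.67 in ENK KO and by -0.74 and -0.67 in WT. Each gene named in these comparisons had an adjusted p under 0.05 in both genotypes, and here too tissue and a possible separate summarisation cannot be told apart.

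The genes beside Penk were read because a targeted locus can carry flanking sequence of the strain in which it was made. Of tested genes in RefSeq gene order, 6 were found on the side of Penk toward the chromosome start within the gene table and 20 on the other. In limma 0 of these 26 were called in either tissue, and 1 reached an unadjusted p under 0.05 in each (3.85%, against 8.37% of tested genes in spleen and 3.53% in thymus). The immediate neighbours Chchd7 and Bpnt2 differed by -0.02 and -0.00079 in spleen and by 0.04 and 0.12 in thymus. Of the 40 tested genes around En2 on chromosome 5, 0 were called in either tissue, and 4 in spleen (10%) and 3 in thymus (7.5%) reached an unadjusted p under 0.05. Of its immediate neighbours Insig1 differed by -0.22 in spleen and -0.09 in thymus, and Rbm33 by 0.08 and -0.08.

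For the 3 genes above background, the genes whose values were most like theirs were named by Pearson's r over the 14 arrays, as a description. For Pnoc they were Nos1 (r = 0.959), Sstr3 (0.934) and Egf (0.899), and with group means removed r was 0.948, 0.925 and 0.878. The values of Nos1 spanned 6.65 to 6.89, around the background level. For Oprd1 they were Dzip1l (0.930), Cacng2 (0.926) and Tcn2 (0.916), with 0.895, 0.868 and 0.869 once group means were removed. For Ogfr they were Chrm4 (0.982), Pdx1 (0.977) and Tuft1 (0.977), which fell to 0.833, 0.733 and 0.771 once group means were removed. These arrays share the hybridisation and summarisation steps, and the genes named are mostly at low levels. They were picked for the highest r among all tested genes, so a high r follows from the choice. Predicted genes were not named.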

How the data were processed

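The authors deposited log2 values, 1 per probe set and Affymetrix array. They come from RMA, per the submitters' processing notes, a method that subtracts background, equalises array distributions by quantiles and summarises probes. Sources used here do not give the software. Per the labels' protocols, 300 ng of total RNA was turned into biotin-labelled sense cDNA. The table held 28213 probe sets, 21640 with 1 symbol, 1321 with several and 5252 with none in the annotation used. Symbols were looked up in RefSeq (GRCm38.p6), which found 21553 and changed 0. Per gene the probe set with the highest mean was kept (19937 genes, 954 with several).

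Groups came from the labels. Genes above the 40th percentile (6.76) on at least 2 arrays were tested (13641), and the 4 opioid genes that failed this filter were read from a fit of all genes. A mean per group over all 14 arrays was fitted in limma 3.58.1 (R 4.3.3; eBayes with a trend), with Benjamini-Hochberg adjustment over all genes of the fit and a threshold of 0.05. No gene list was tested as a set. For Penk and En2 an exact permutation test (two-sided) was used. The 9 genes, the lists and the tests were chosen with earlier results of these data known.

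By rule the text names all 9 genes, up to 4 genes of each list by smallest p, and the immediate neighbours of Penk and En2. It also names the 3 genes most like each opioid gene whose mean is above background, with predicted genes passed over. Alternatives changed the filter, normalization, variance model, array weights, covariates, ages and arrays used. In simulated data 200 of 13641 genes were changed, 100 at each of 2 sizes. The fit recovered 96% in spleen and 95% in thymus at a log2 difference of 1, and 87% and 67% at 0.5. It made 9 false calls in spleen and 7 in thymus. The simulated noise was independent between arrays and took its spread from these data, where repeated values make the thymus spread too small. The rates may therefore be too high for the real arrays.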

Additional observations from a re-analysis of the deposited data

Results flagged for a closer look

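In the 18 sets of values tested (9 genes in each of the 2 spleen groups), 5 held an array far from the others of its group. The rule used flags about 1 in 20 sets of independent, normally distributed values. That rate does not hold for sets with repeated values or sets that share arrays, so 5 of 18 cannot be set against it. Penk was at 7.00 on the library labelled spleen ENK KO replicate 28, against 5.93 to 6.23 on the other 4 ENK KO spleen arrays. Pdyn was at 6.35 on spleen ENK KO replicate 3, a 2-month-old sample, against 6.77 to 6.78 on the others. Oprk1 was at 4.90 on spleen ENK KO replicate 31, the other 4 sharing the value 5.11. Oprl1 was at 6.18 on spleen WT replicate 34, against 6.31 to 6.32 on the others. Ogfr was at 9.81 on the same WT array, against 9.56 to 9.59. Equal values on several arrays of a group make a lone different value stand out more. The thymus groups have too few arrays for this comparison.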

How the results depend on the processing

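None of 476 recomputed genotype differences of the 9 genes passed the threshold (smallest adjusted p = 0.465), and 15 had the other sign. In spleen Penk was -0.0090 with array weights, -0.19 without ENK KO replicate 28 and WT replicate 22 together, and -0.12 with spleen arrays alone and replicate 28 left out, a setting chosen after seeing the data. With single arrays left out Penk ran from -0.12 (without ENK KO replicate 28) to 0.20 (without WT replicate 34), in limma and in the exact permutation test alike. Pnoc was 0.0046 with an age of 2 months as a covariate and 0.024 without the 2-month-old samples, and ran from -0.067 to 0.0079 with single arrays left out, as Oprl1 did from -0.027 to 0.062. In thymus, with age as a covariate, Penk was 0.087 and Pdyn 0.037, and Oprd1 was -0.0020 with array weights. With single arrays left out Oprd1 ran from -0.0093 to 0.028 and Oprk1 from -0.059 to 0.030. The cause of these turns was not tested. In spleen, Pdyn, Oprd1 and Oprm1 differed by -0.17, -0.14 and -0.04 with quantile normalization and by -0.18, -0.13 and -0.05 with median centring. In the main fit these differences were -0.21, -0.17 and -0.08.

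Between tissues the called genes numbered 1 in each genotype with a filter at the 60th percentile, which only 1 of the 9 passed, and 0 where a fold of 1.5 or more and an unadjusted p under 0.05 were required. With single arrays left out they numbered 1 to 4 in ENK KO, 1 without thymus replicate 1 or 29, and 2 to 3 in WT. Apart from that fold rule Ogfr was called under every alternative run. Its log2 difference ran from -0.53 to -0.41 in ENK KO and from -0.47 to -0.34 in WT over the settings that leave out no single array, and from -0.55 to -0.49 and from -0.52 to -0.43 with single arrays left out. With background set at the 60th percentile (7.72), 1 gene, Ogfr, was above it in each group. With 10 genes on each side, the share of Penk neighbours at an unadjusted p under 0.05 was 6.25% in thymus and 0% in spleen. That of En2 neighbours was 10% in thymus and 15% in spleen, where 3.53% and 8.37% of all tested genes reached it.

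No paired analysis was possible because no replicate number occurs in more than 1 group. Fits with sex as a covariate rest on the sex label of spleen WT replicate 22. Values at or around background and values repeated between thymus arrays limit what can be seen of Penk, Pdyn, Pomc, Oprm1, Oprk1 and Oprl1.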
